A study of Mus musculus with 32 samples.

Results

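Expression of 10 genes for UDP-glucuronosyltransferases (UGTs) was measured in livers of mice with and without Cyp2c70, on chow or on chow with SC-435. They were Ugt1a1, Ugt1a6a, Ugt1a9 and Ugt1a10 of the Ugt1a family, and Ugt2b1, Ugt2b5, Ugt2b34, Ugt2b35, Ugt2b36 and Ugt2b38 of the Ugt2b family. They are taken from the deposited count table by their names and are 10 of its 54532 genes. The table holds 12 further UGT genes. RNA of whole frozen liver was sequenced from 32 mice on a C57BL/6 background, all 12 weeks old, in 8 groups of 4 mice (male or female, WT or Cyp2c70 KO, chow or SC-435). The KO line carries a CRISPR-Cas9 deletion of exon 2 of Cyp2c70, the gene for the hepatic enzyme that makes muricholic acids, and was bred from a single founder. SC-435, an inhibitor of the ileal bile acid transporter (IBAT), was mixed into chow at 0.006% by weight, about 11 mg/kg/day.

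UGTs are membrane enzymes of the endoplasmic reticulum that transfer glucuronic acid from UDP-glucuronate to small lipophilic molecules, which are then excreted in bile or urine. The genes of the Ugt1a family each have a first coding exon and promoter of their own, spliced to a set of exons that all of them share, so that the part of the protein that binds the substrate differs and the part that binds UDP-glucuronate is common. The Ugt2b enzymes are made by separate genes in a cluster. Ugt1a1 conjugates bilirubin, Ugt1a6a small planar phenols, and the Ugt2b enzymes mainly steroids, bile acids and drugs.

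Libraries held 36476021 to 44771350 counted reads. Levels are given below in CPM, the reads of a gene relative to the library total after adjustment by TMM (trimmed mean of M values), and 3 reads equalled 0.0541 to 0.117 CPM. Cyp2c70, the targeted gene, averaged 703.5 ± 104 CPM (SD, n = 4) in female WT and 165 ± 12.6 in female KO mice on chow, and 626 ± 109 and 174 ± 14.8 in males. The deletion removes exon 2 only, and the table counts reads by gene, so reads of the other exons of Cyp2c70 are counted in KO mice as well. The library of male WT chow replicate 1 stood apart, with a TMM factor of 0.622 against 0.912 to 1.256 in the others, and results that rest on it are given with and without it. Male KO chow replicate 4 had the highest summed cholangiocyte markers, 1213 CPM. Hepatocyte markers (12 genes, such as Alb and Ttr) summed to 63900 to 216000 CPM in the 32 libraries, while kidney tubule markers (4 genes) summed to at most 3.98 CPM. The p-values below measure the spread between these mice, and in whole liver fewer hepatocytes and less RNA per hepatocyte cannot be told apart.

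The 4 Ugt1a genes lie on the plus strand of chromosome 1 (mm10), in 1 stretch from chr1:88055388, the start of Ugt1a10 (ENSMUSG00000090165), to chr1:88219004, its end. Ugt1a9 (ENSMUSG00000090175) is at chr1:88070800-88218997, Ugt1a6a (ENSMUSG00000054545) at chr1:88134809-88218997 and Ugt1a1 (ENSMUSG00000089960) at chr1:88211959-88218997. Their first coding exons all join the same exon, chr1:88215044-88215175. The junctions are shown because they mark where the genes stop being distinct, with 40 bases of each gene's first coding exon in lower case and the first 40 bases of the shared exon in capitals.
Ugt1a1: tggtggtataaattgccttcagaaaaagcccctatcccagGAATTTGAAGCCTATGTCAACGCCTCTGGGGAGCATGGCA
Ugt1a6a: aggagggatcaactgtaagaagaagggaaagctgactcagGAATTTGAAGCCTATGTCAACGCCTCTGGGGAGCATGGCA
Ugt1a9: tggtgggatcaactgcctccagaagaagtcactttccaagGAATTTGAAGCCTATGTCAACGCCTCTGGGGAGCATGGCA
Ugt1a10: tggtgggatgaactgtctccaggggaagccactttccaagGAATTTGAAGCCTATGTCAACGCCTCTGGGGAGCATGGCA
Between 50.3% (Ugt1a6a) and 59.9% (Ugt1a9) of the exonic bases of these genes were shared with another gene of the same strand, and the first coding exon held 53.5% to 54.1% of each coding sequence. The first coding exons of Ugt1a9 and Ugt1a10 were 91.9% identical, against 59.2% to 64.2% for the other pairs of these 4 genes. Ugt1a6a shares its first coding exon, chr1:88138473-88139331, with Ugt1a7c. How reads on shared exons were assigned was not given in the sources used here. They were not counted for every gene that has the exon. Ugt1a8, with 59.2% of its exonic bases shared, averaged 0.00267 CPM per kb of exonic length in female WT mice on chow. Ugt1a1 averaged 77.7 on that scale in the same mice. Whether such reads were dropped or given to single genes was not tested, so the levels of the Ugt1a genes can depend on each other. The gene on the opposite strand, Gm20528, had 0 reads in all 32 libraries.

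The Ugt2b genes lie within chromosome 5 and share no exonic bases with one another. Ugt2b34 (ENSMUSG00000029260) is at chr5:86889767-86906937, Ugt2b1 (ENSMUSG00000035836) at chr5:86916638-86926530, Ugt2b36 (ENSMUSG00000070704) at chr5:87065927-87092555, Ugt2b5 (ENSMUSG00000054630) at chr5:87124960-87140318 and Ugt2b38 (ENSMUSG00000061906) at chr5:87409942-87424203, all on the minus strand. Ugt2b35 (ENSMUSG00000035811), at chr5:87000860-87013275, is on the plus strand. The coding sequences of Ugt2b5 and Ugt2b38 were 97.0% identical, and 41.7% of the 50-base stretches of Ugt2b5 transcripts and 37.4% of those of Ugt2b38 also occur in another gene. Counts of this pair are therefore uncertain. For Ugt2b1, Ugt2b34, Ugt2b35 and Ugt2b36 that share was 0% to 1.4%.

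The 250 bases upstream of the start site are shown for both pairs of near copies, since the levels of their members differed widely (GRCm38.p6, sequences from RefSeq, 5′ to 3′ on the gene's strand). They are chr1:88070529-88070778 (plus strand) for Ugt1a9, chr1:88055161-88055410 (plus) for Ugt1a10, chr5:87140341-87140590 (minus) for Ugt2b5 and chr5:87424204-87424453 (minus) for Ugt2b38. Capitals mark the core GTTAAT of the binding motif of the hepatocyte factor HNF1, on either strand.
Ugt1a9: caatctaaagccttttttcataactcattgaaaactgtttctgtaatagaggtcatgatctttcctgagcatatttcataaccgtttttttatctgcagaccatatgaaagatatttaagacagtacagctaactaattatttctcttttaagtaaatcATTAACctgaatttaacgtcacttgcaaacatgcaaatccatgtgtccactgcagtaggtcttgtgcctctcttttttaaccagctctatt
Ugt1a10: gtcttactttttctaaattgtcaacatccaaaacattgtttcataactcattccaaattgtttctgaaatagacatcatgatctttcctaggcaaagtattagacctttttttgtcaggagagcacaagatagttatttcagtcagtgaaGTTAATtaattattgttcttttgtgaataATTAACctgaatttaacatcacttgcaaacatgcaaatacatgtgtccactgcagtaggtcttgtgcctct
Ugt2b5: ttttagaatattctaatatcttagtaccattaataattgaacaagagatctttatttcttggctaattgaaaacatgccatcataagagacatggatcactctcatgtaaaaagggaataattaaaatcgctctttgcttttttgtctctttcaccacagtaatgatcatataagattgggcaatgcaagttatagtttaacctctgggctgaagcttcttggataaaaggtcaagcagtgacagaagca
Ugt2b38: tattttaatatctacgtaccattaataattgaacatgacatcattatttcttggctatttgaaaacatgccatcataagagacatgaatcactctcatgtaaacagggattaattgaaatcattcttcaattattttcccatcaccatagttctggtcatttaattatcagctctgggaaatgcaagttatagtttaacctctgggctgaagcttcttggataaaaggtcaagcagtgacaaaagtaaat
The windows were 82.8% identical over 227 aligned bases for Ugt1a9 and Ugt1a10, and 88.3% over 240 for Ugt2b5 and Ugt2b38. All 10 genes had a promoter in the reference table. GTTAAT was present upstream of all 4 Ugt1a genes and of none of the Ugt2b genes, against 6.4% of 32851 promoters in the table. It began 41 bases upstream in Ugt1a1, 50 in Ugt1a6a, 91 in Ugt1a9, and 100 and 71 in Ugt1a10. The letters TTCNNNGAA, the motif of STAT5, occurred only in Ugt1a6a, 121 bases upstream (7.0% of all promoters). TATAAA (12.4%) and GCGTG, the core to which the dioxin receptor binds (28.2%), occurred in none of the 10, on either strand. These letters did not overlap each other in the 10 windows. A match is a description and not a binding site. Only exact letters were sought, so a window without a match may still hold a variant of the motif.

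Levels of different genes were compared per kb of the exonic bases that no other gene of the same strand shares. In female WT mice on chow, Ugt2b5 was at 305 CPM per kb, Ugt2b36 at 233, Ugt1a1 at 189, Ugt2b1 at 128, Ugt2b34 at 113.5, Ugt1a9 at 58.1, Ugt2b35 at 44.6, Ugt2b38 at 10.5, Ugt1a6a at 5.05 and Ugt1a10 at 0.804. For the Ugt1a genes the scale holds only if reads on shared exons were not counted. It also takes reads as counted by strand. Ugt1a1 has 913 such bases, but only 385 of them lie outside the opposite-strand gene Gm20528 as well. The strand setting was not given, so the rank of Ugt1a1 is uncertain. In male WT mice on chow Ugt2b5 was also the highest on this scale, at 445 CPM per kb, and Ugt2b1 came next at 395. Ugt2b38, the near copy of Ugt2b5 in coding sequence, was at 30.35 CPM per kb in these males, far below Ugt2b5 in both sexes, with the limit that reads of their common stretches may not have been assigned to either gene.

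**Figure D1:**
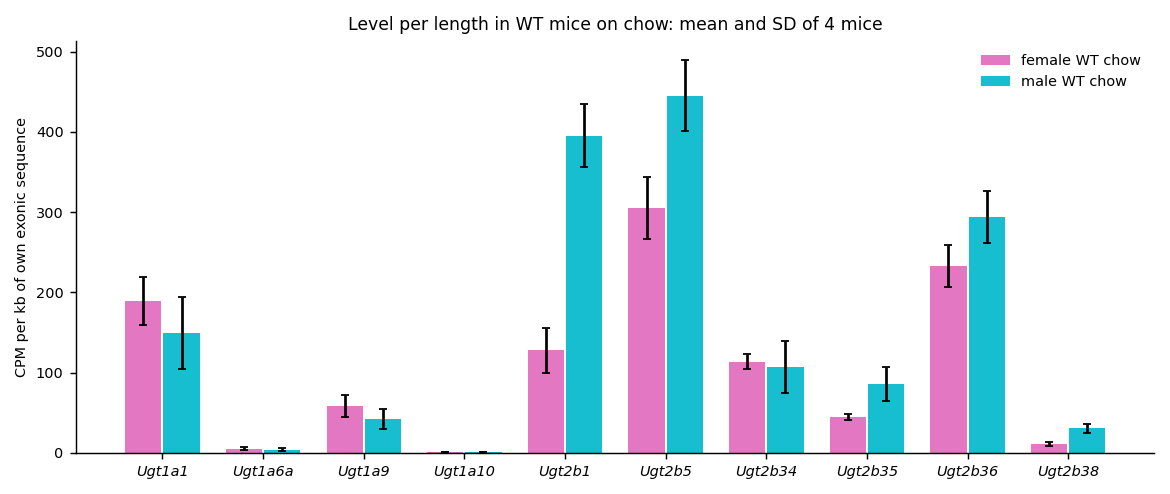
Level of the 10 UGT genes in female and male WT mice on chow, with bars at the mean and error bars for the SD of 4 mice. The linear axis is CPM per kb of exonic bases not shared with another gene of the same strand. On this scale Ugt2b5 stood highest in both sexes (305 and 445), and Ugt2b1 was at 128 in females and 395 in males.

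Across the 8 groups, the highest group mean exceeded the lowest by 10.1-fold for Ugt1a10, 5.84-fold for Ugt2b1, 3.59-fold for Ugt2b38, 2.74-fold for Ugt1a6a, 2.64-fold for Ugt2b35, 2.37-fold for Ugt1a1, 2.31-fold for Ugt2b5, 2.18-fold for Ugt1a9, 1.58-fold for Ugt2b36 and 1.41-fold for Ugt2b34. Ugt2b34 was thus the steadiest of the 10. For Ugt2b1, Ugt2b5, Ugt2b35, Ugt2b36 and Ugt2b38, all 4 male group means lay above all 4 female group means. In the order of group means, most neighbours overlapped between mice. The neighbours without overlap were female KO SC-435 above female WT SC-435 for Ugt1a6a, female KO SC-435 above female KO chow for Ugt2b1 and Ugt2b5, male KO SC-435 above female WT chow and female KO chow above female KO SC-435 for Ugt2b35, and male KO SC-435 above female WT SC-435 for Ugt2b38. No neighbouring groups were separate for Ugt1a1, Ugt1a9, Ugt1a10, Ugt2b34 or Ugt2b36.

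**Figure D2:**
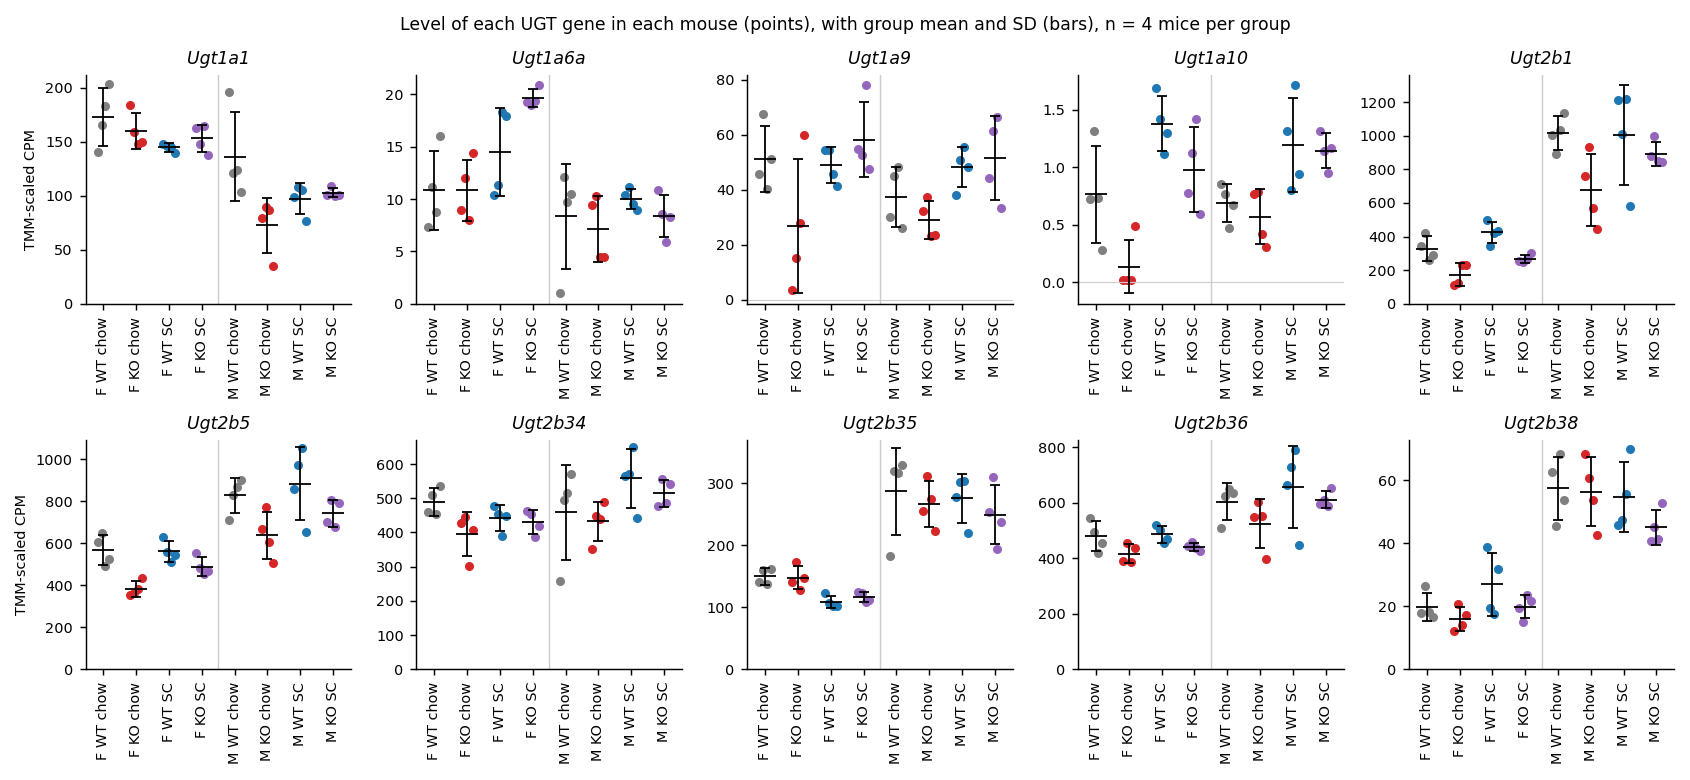
CPM of each UGT gene in each of the 32 mice (points) with the mean and SD of each group (lines), by sex, genotype and diet. Ugt1a10 lay at 0.0193 to 0.0202 CPM in 3 of 4 female KO mice on chow, and Ugt2b1 was lower in every female than in any male on the same genotype and diet.

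The effect of Cyp2c70 loss was read on chow. In females, Ugt2b1 and Ugt2b5 were lower in KO than in WT mice, and no UGT gene of the 10 was higher. All 10 differences were below 0, with a median log2 difference of -0.32 against -0.02 over the 16205 genes tested, of which 9.83% were called higher and 5.05% lower (edgeR's quasi-likelihood test, Benjamini-Hochberg adjusted p under 0.05). Ugt2b1, which conjugates steroids and bile acids, was at 346, 423, 259.6 and 289 CPM in WT mice and at 112.0, 122, 229 and 234 in KO mice. Every KO mouse was below every WT mouse, and KO replicates 1 and 2 were the lowest. Ugt2b1 thus had a log2 fold change of -0.93 ± 0.26 (SE, edgeR adjusted p = 0.0393). The call rested on single mice. It was lost when WT replicate 1, 2 or 4, or KO replicate 1 or 2, was left out (adjusted p up to 0.117).

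Ugt2b5, the highest of the 10 on the scale per kb above, was at 604, 648, 492 and 525 CPM in female WT mice on chow. In female KO mice on chow it was at 352, 360.3, 381 and 434.6 CPM. The groups did not overlap, with a log2 fold change of -0.58 ± 0.12 (edgeR adjusted p = 0.0118). This call held when any 1 of the 8 mice was left out. Ugt2b34 fell outside the call at -0.32 ± 0.13 (adjusted p = 0.138), although its 4 KO mice (303 to 444 CPM) lay below the 4 WT mice (454 to 536 CPM). Ugt1a1 (-0.12 ± 0.13), Ugt1a6a (-0.01 ± 0.25), Ugt2b35 (-0.03 ± 0.11) and Ugt2b36 (-0.21 ± 0.11) overlapped between genotypes. In the same libraries hepatocyte markers summed to 72800 to 93500 CPM in KO and 112000 to 136000 in WT mice, and cholangiocyte markers (10 genes) to 179 to 385 against 59.3 to 89.0 CPM. Macrophage markers (10 genes) summed to 639 to 968 CPM in KO and 388 to 460 in WT mice. The part of these shifts in the UGT levels was not tested.

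Ugt1a10 and its near copy Ugt1a9 were spread more widely among the female KO mice on chow than the other 8 genes. Their SDs were 0.233 CPM around a mean of 0.136 and 24.4 CPM around 26.6. The wide spread was not particular to near copies. Ugt1a5, with a first coding exon 60.4% identical to that of Ugt1a9, averaged 14.9 ± 13.55 CPM per kb of exonic length (SD). Ugt1a9 averaged 12.16 ± 11.12 on that scale in the same mice. Ugt3a1 was also wide, at 13.02 ± 8.349, while Ugt1a6b was tighter, at 12.25 ± 2.026. The reason was not tested. Ugt1a10 had 28, 56, 30 and 12 reads in the WT mice and 1, 1, 1 and 20 reads in the KO mice. Replicates 1 to 3 were thus close to no reads, and replicate 4 was within the WT range. The fitted log2 fold change over all 8 mice was -2.59 ± 0.88 (edgeR adjusted p = 0.0761), and DESeq2 called it (adjusted p = 0.0282). In simulated counts for this comparison, 20.6% of DESeq2's calls were unchanged genes, against 7.78% of edgeR's. The simulation changed far fewer genes than were called in the real data. Such shares depend on that number, so they are not the error rate of the real calls.

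Ugt1a9, which conjugates bulky phenols and drugs, was at 45.6, 67.6, 40.1 and 51.0 CPM in female WT and 3.58, 15.2, 27.7 and 60.0 CPM in female KO mice on chow. KO replicate 4 was again in the range of the WT mice, and the other KO mice were below all of them. A log2 fold change of -0.95 ± 0.6 was not called (edgeR adjusted p = 0.318). Without KO replicate 4, an alternative fixed as part of leaving out each mouse, both genes were called lower, Ugt1a10 at -5.08 (adjusted p = 0.00106) and Ugt1a9 at -1.71 (adjusted p = 0.0430), with Ugt2b1 (-1.08, adjusted p = 0.0176) and Ugt2b5, while 12.6% of all genes were then called higher and 6.74% lower. Replicate 4 had the lowest cholangiocyte sum (179 CPM) and the highest hepatocyte sum (93520 CPM) of its group, whose part in the levels of Ugt1a9 and Ugt1a10 was not tested. No label sets this mouse apart, and it belongs to the comparison. It had the highest level of both genes in its group, so leaving it out lowers the KO mean of both by construction. Calls of Ugt1a9 and Ugt1a10 without it, here and below, are therefore no added support. Across all 32 mice the log2 levels of Ugt1a9 and Ugt1a10 had a Pearson correlation of 0.68, and of 0.42 within groups, and the pair share exons and most of their first exon's sequence.

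**Figure D3:**
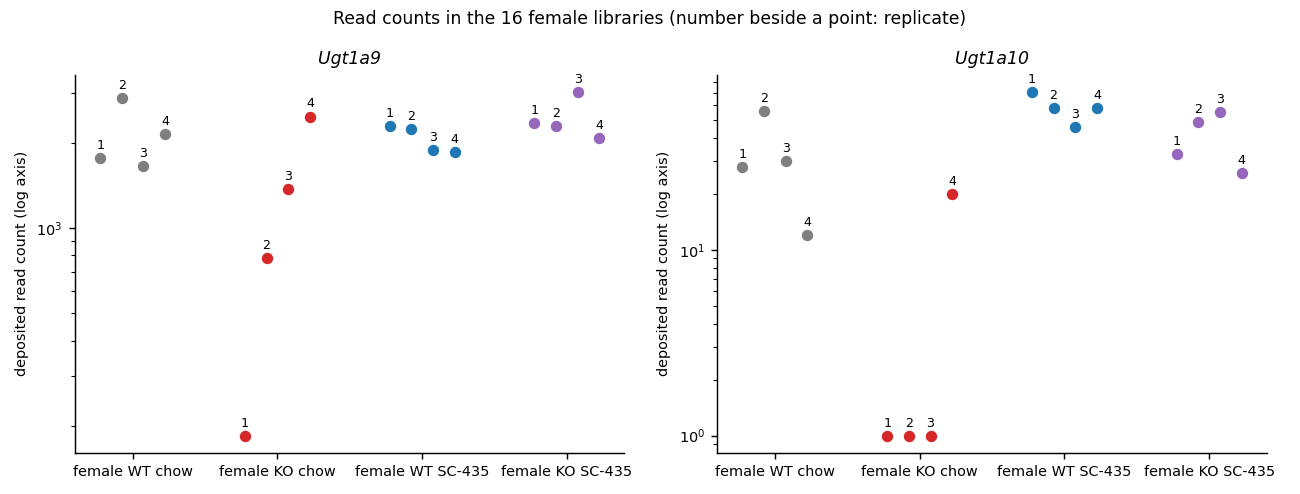
Deposited read counts (log axis) of Ugt1a9 and Ugt1a10 in each of the 16 female mice by group, with the replicate number beside each point. In the KO mice on chow replicate 4 had 2474 reads of Ugt1a9 and 20 of Ugt1a10, while replicates 1 to 3 had 185 to 1374 reads and 1 read.

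In males on chow, none of the 10 was called by edgeR (2 had an unadjusted p under 0.05, and DESeq2 called 0). The median log2 difference was -0.23 against 0.04 over 15862 genes, of which 0.933% were called higher and 0.151% lower. In simulated counts for this comparison edgeR recovered 4.12% of log2 changes of 1, against 66.7% for the same comparison in females. Most changes of that size would thus be missed in males. Ugt1a1, the bilirubin enzyme, was at 196, 121, 124 and 103 CPM in male WT mice and 79.4, 89.6, 86.8 and 35.4 CPM in male KO mice. The groups did not overlap, WT replicate 1 was highest and KO replicate 4 lowest. The log2 fold change was -0.87 ± 0.31 (edgeR adjusted p = 0.225), and it passed only in a fit of all 4 male groups together (-0.89, adjusted p = 0.0369). Ugt2b1 was lower by -0.56 ± 0.25 and overlapped between genotypes. Without male WT chow replicate 1, where 4.38% of genes were called higher and 2.92% lower, still none of the 10 was called, and Ugt1a1 stood at -0.66 (adjusted p = 0.170). Cholangiocyte markers summed to 169 to 1213 CPM in these male KO mice and 45.7 to 55.0 CPM in the WT males. Hepatocyte markers summed to 63900 to 98900 CPM in the KO males and 95500 to 216000 CPM in the WT males. The highest of these WT sums lay far above the rest of its group (mean 128700 ± 58000 CPM, SD), and it widens the difference in hepatocyte markers. The part of the markers in the levels was not tested. The difference between the KO effect in females and in males was called for none of the 10 (2 at an unadjusted p under 0.05, DESeq2 0), against 0.0117% of 17026 genes in each direction. Simulated counts for this difference gave a recovery of 8.25% of log2 changes of 1, so it could seldom be called. For Ugt1a10 the difference was -2.27 ± 1.05 on the log2 scale (edgeR adjusted p = 0.780), and without female KO chow replicate 4 it was called at -4.81 (adjusted p = 0.0408), when 0.0115% of all genes were called higher and 0.0634% lower. Without male WT chow replicate 1 none of the 10 was called, with shares of 0.19% and 0.241%.

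SC-435 was then compared with chow in KO mice. These comparisons share the KO mice on chow with those above, so their calls are not independent of each other. In females Ugt1a10, Ugt1a6a and Ugt2b5 were higher and Ugt2b35 was lower on SC-435. The median log2 difference of the 10 was 0.33 against -0.02 over 16332 genes, of which 8.56% were called higher and 9.23% lower.

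Ugt1a6a, the phenol enzyme, was at 8.92, 12.0, 8.03 and 14.4 CPM in female KO mice on chow and at 19.3, 19.0, 19.3 and 20.9 CPM on SC-435. All 4 treated mice were above every chow-fed mouse and close to one another. The log2 fold change was 0.86 ± 0.17 (edgeR adjusted p = 0.00885) and stayed between 0.71 and 1.03, with an adjusted p of at most 0.0319, when any 1 mouse was left out. Its first coding exon is also that of Ugt1a7c, so the rise could not be assigned to 1 of the pair by that exon.

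Ugt1a10 had 33, 49, 55 and 26 reads in the female KO mice on SC-435, all above the 1, 1, 1 and 20 reads on chow. The log2 fold change was 2.94 ± 0.81 (edgeR adjusted p = 0.0330). It lost the call when any mouse but chow replicate 4 or SC-435 replicate 4 was left out (adjusted p 0.0647 to 0.0889), and was 5.46 (adjusted p = 0.00012) without chow replicate 4. Ugt1a9 was at 54.7, 52.6, 78.0 and 47.3 CPM on SC-435, which overlapped chow replicate 4 (1.13 ± 0.6, adjusted p = 0.216), and was called at 1.93 (adjusted p = 0.0166) without that replicate, when 13.4% of all genes were called higher and 13% lower.

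Ugt2b5 rose from 352 to 434.6 CPM on chow to 551, 484, 451 and 466 CPM on SC-435 in female KO mice, without overlap. Its log2 fold change of 0.36 ± 0.10 (edgeR adjusted p = 0.0359) lost the call when any mouse but chow replicate 4 was left out. Ugt2b1 was at 257, 250.6, 265 and 304 CPM on SC-435, above the 112.0 to 234 CPM on chow in every mouse (0.63 ± 0.23, adjusted p = 0.0874), and was called at 0.82 (adjusted p = 0.0188) without chow replicate 4. Ugt2b35 moved the other way, from 141, 173, 129 and 148 CPM on chow to 125, 123, 109 and 111 CPM on SC-435. Its groups did not overlap (-0.34 ± 0.10, edgeR adjusted p = 0.0445), and the call was kept in only 2 of the 8 fits with a mouse left out. In these treated mice hepatocyte markers summed to 99600 to 113000 CPM and cholangiocyte markers to 123 to 170 CPM, against 72800 to 93500 and 179 to 385 on chow, and their part was not tested.

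**Figure D4:**
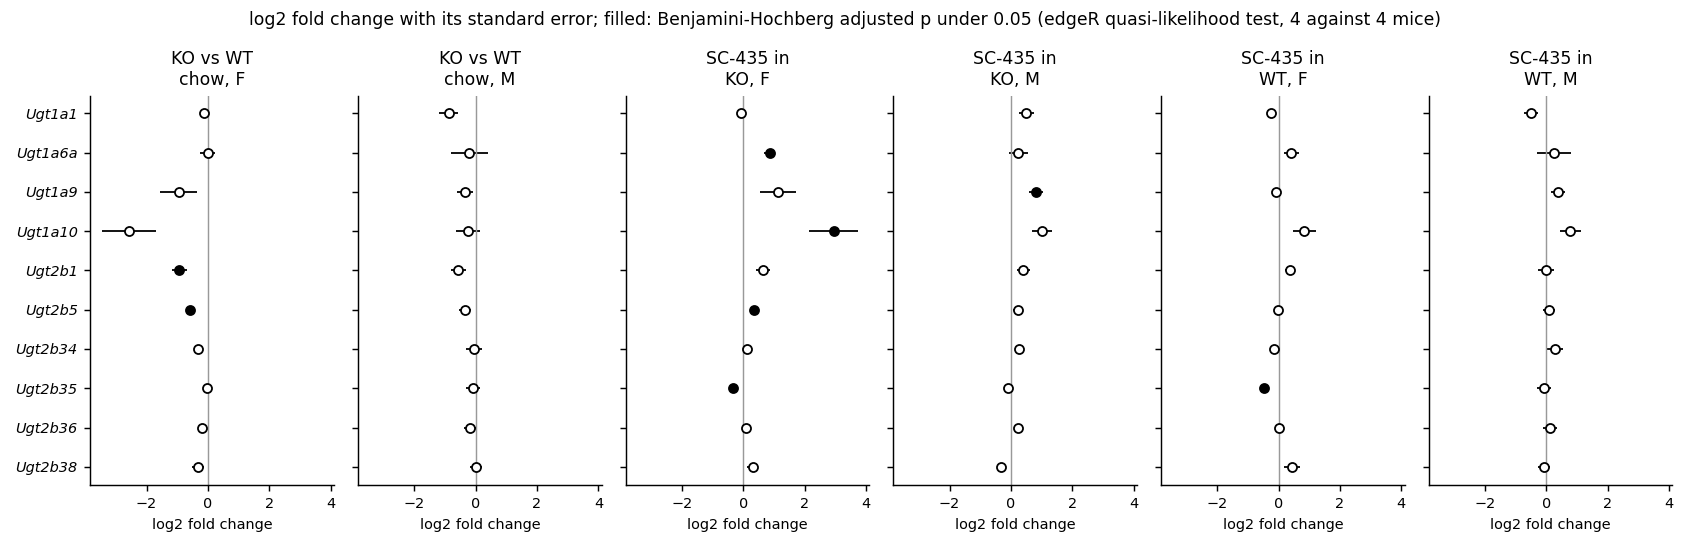
Log2 fold change (points) with SE (bars) of the 10 UGT genes for KO against WT on chow and for SC-435 against chow in KO and in WT mice, by sex (F, M). Filled points passed an edgeR adjusted p under 0.05, and Ugt1a10 reached -2.59 for KO against WT and 2.94 for SC-435 against chow in KO females.

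In male KO mice Ugt1a9 was higher on SC-435, at 44.4, 61.3, 66.5 and 33.4 CPM, than on chow, at 32.2, 37.4, 23.0 and 23.6 CPM. The lowest treated mouse lay below the highest mouse on chow. The log2 fold change was 0.83 ± 0.23 (edgeR adjusted p = 0.0401), and the call was lost without chow replicate 3 or 4 or SC-435 replicate 1, 2 or 3 (adjusted p 0.0704 to 0.103). Ugt1a10 had 34, 34, 21 and 17 reads on chow and 54, 47, 36 and 47 reads on SC-435, without overlap in CPM, at 1.02 ± 0.33 (adjusted p = 0.0602). It was called by DESeq2 (adjusted p = 0.0208), and by edgeR without chow replicate 1 or 2 (adjusted p = 0.0449 for each). Ugt2b1 (0.40 ± 0.21, adjusted p = 0.192) was called without chow replicate 2 (0.60, adjusted p = 0.0481). Ugt1a1 was at 101, 109, 100.1 and 101 CPM on SC-435, above the 35.4 to 89.6 CPM on chow in every mouse (0.50 ± 0.24, adjusted p = 0.170). Without chow replicate 4 Ugt1a1 was called higher at 0.27 (adjusted p = 0.0371) and Ugt2b38 lower at -0.43 (adjusted p = 0.0350), with 7.98% of all genes called higher and 7.05% lower. The median of the 10 was 0.25 against -0.03 over 15984 genes, of which 8.8% were called higher and 8.36% lower. In these treated males cholangiocyte markers summed to 68.2 to 78.4 CPM against 169 to 1213 CPM on chow, and markers of stellate cells and fibroblasts (8 genes) to 179 to 270.2 against 341 to 1232 CPM, and their part was not tested.

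The SC-435 effect in KO mice was not called different between females and males for any of the 10 by edgeR (1 at an unadjusted p under 0.05, DESeq2 0), against 0.0996% of 17069 genes higher and 0.111% lower. Without female KO chow replicate 4 the difference was called for Ugt1a10, at 4.43 (adjusted p = 0.00564), and 0.707% of all genes were then called higher and 0.356% lower.

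SC-435 was also compared with chow in WT mice. In females Ugt2b35 fell from 140.2, 160.1, 137 and 163 CPM on chow to 123, 107, 102.5 and 102 CPM on SC-435, without overlap. Its log2 fold change was -0.47 ± 0.09 (edgeR adjusted p = 0.0238), and the call was lost without chow replicate 2 or SC-435 replicate 2, 3 or 4 (adjusted p 0.0638 to 0.0926). Ugt1a1 (-0.26 ± 0.11, adjusted p = 0.218) was called without chow replicate 1 (-0.35, adjusted p = 0.0452). None of the other 9 was called with all mice, the median was 0 as over all genes, and 2.4% of 15739 genes were called higher and 1.88% lower. Ugt1a10 was at 0.84 ± 0.37 (adjusted p = 0.248), with 71, 58, 46 and 58 reads on SC-435.

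In WT males none of the 10 was called by edgeR (1 at an unadjusted p under 0.05, DESeq2 0), against 0.0131% of 15211 genes called higher and 0.0263% lower. The median was 0.11, against -0.03 over all genes. Ugt1a10 was at 0.79 ± 0.35 (edgeR adjusted p = 0.813), with 45, 34, 65 and 35 reads on SC-435 and 22, 28, 19 and 26 on chow. Without male WT chow replicate 1 still none was called, while 1.41% of genes were called higher and 1.12% lower.

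Whether SC-435 acted differently in KO and WT mice was tested as an interaction. It was called for none of the 10 in females (2 at an unadjusted p under 0.05, DESeq2 0), where 0.859% of 16882 genes were called higher and 1.78% lower. The largest were Ugt1a10 at 2.09 ± 0.92 (edgeR adjusted p = 0.217) and Ugt1a9 at 1.2 ± 0.68 (adjusted p = 0.347). Without female KO chow replicate 4 both were called, at 4.59 (adjusted p = 0.00151) and 1.97 (adjusted p = 0.0356), while the shares of all genes called rose to 4.6% higher and 4.97% lower. In males none was called (1 at an unadjusted p under 0.05, DESeq2 0), with 0.0121% of 16555 genes called higher and 0.0785% lower, and Ugt1a1 had the largest difference, 0.97 ± 0.35 (edgeR adjusted p = 0.267). Without male WT chow replicate 1 it was 0.73 (adjusted p = 0.215) and again none was called, with 0.301% of genes called higher and 0.396% lower.

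Treated KO mice were also set against untreated WT mice. In females Ugt1a6a was higher, at 19.0 to 20.9 CPM against 7.34, 11.1, 8.81 and 15.98 CPM (0.86 ± 0.19, edgeR adjusted p = 0.0129), a call that held without any 1 mouse. Ugt2b35 was lower, at 109 to 125 CPM against 137 to 163 CPM (-0.36 ± 0.09, adjusted p = 0.0197), and lost the call without WT replicate 2 or KO replicate 3 or 4 (adjusted p 0.0564 to 0.0603). Ugt2b1 (-0.29 ± 0.14), Ugt2b5 (-0.22 ± 0.11), Ugt1a9 (0.19 ± 0.18) and Ugt1a10 (0.35 ± 0.42) overlapped between these groups and were not called. The median of the 10 was -0.15 against 0 over 15881 genes, of which 8.73% were called higher and 7.3% lower. In males none was called (1 at an unadjusted p under 0.05, DESeq2 0), with a median of -0.07 against -0.03 over 15395 genes and 0.169% called higher and 0.039% lower. Without male WT chow replicate 1 these shares were 6.47% and 5.7%, and again none of the 10 was called.

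Sex gave the largest differences of the Ugt2b genes. In WT mice on chow Ugt2b1 was at 346, 423, 259.6 and 289 CPM in females and 1003, 893, 1036 and 1136 CPM in males, without overlap (-1.63 ± 0.20, edgeR adjusted p = 0.0044). This call held in all 16 alternative fits. Ugt2b38 was at 17.99, 26.4, 18.2 and 16.6 CPM in females and 62.5, 45.3, 68.3 and 53.5 CPM in males (-1.54 ± 0.21, adjusted p = 0.00766), and kept the call when any 1 mouse was left out. Ugt2b35 (-0.95 ± 0.22, adjusted p = 0.0886) and Ugt2b5 (-0.55 ± 0.17, adjusted p = 0.245) were lower in every female than in any male but were not called. Over 15525 genes, 0.747% were called in each direction, and the median of the 10 was -0.13 against -0.01.

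The library of male WT chow replicate 1 weighed on that comparison. Without it, 6 of the 10 were called. Ugt2b1 (-1.64, edgeR adjusted p = 0.00056), Ugt2b5 (-0.61, adjusted p = 0.0101), Ugt2b35 (-1.11, adjusted p = 0.00018), Ugt2b36 (-0.41, adjusted p = 0.0375) and Ugt2b38 were lower in females, and Ugt1a1 was higher (0.57, adjusted p = 0.0300). The shares of all genes called then rose to 4.78% higher and 4.75% lower.

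The sexes were compared in the other 3 conditions as well, a choice made after seeing the data. In KO mice on chow Ugt2b1 (-1.95, edgeR adjusted p = 0.0146), Ugt2b5 (-0.73, adjusted p = 0.0400), Ugt2b35 (-0.84, adjusted p = 0.0152) and Ugt2b38 (-1.80, adjusted p = 0.00174) were lower in females, against 1.35% of 16561 genes, and none was higher, against 1.38%. Ugt1a1, at 147 to 184 CPM in females and 35.4 to 89.6 in males, missed the call (1.15 ± 0.26, adjusted p = 0.0536) and passed it without male KO chow replicate 4 (0.92, adjusted p = 0.00428), when Ugt2b36 was called lower as well (-0.44, adjusted p = 0.0480) and 2.93% of all genes were called higher and 2.01% lower. The call of Ugt2b5 was lost without replicate 1, 2 or 3 of either sex, that of Ugt2b35 without male replicate 3 or female replicate 1 (adjusted p 0.0521 and 0.0527), and that of Ugt2b1 without female replicate 2 (adjusted p = 0.0536). Without female KO chow replicate 4, Ugt1a10 was also called lower (-4.67, adjusted p = 0.00618), against 1.38% of all genes lower and 1.1% higher.

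In WT mice on SC-435 the same 4 Ugt2b genes were lower in females, Ugt2b35 (-1.35 ± 0.12, edgeR adjusted p = 0.000162), Ugt2b1 (-1.25, adjusted p = 0.0113), Ugt2b5 (-0.66, adjusted p = 0.0292) and Ugt2b38 (-1.02, adjusted p = 0.0392), and Ugt1a1 was higher (0.57, adjusted p = 0.0136). Over 15552 genes 3.2% were called higher and 3.85% lower. The call of Ugt2b5 was lost without male replicate 1, 2 or 3 or female replicate 2, 3 or 4, and that of Ugt2b38 without any 1 mouse but female replicate 1 (adjusted p 0.0511 to 0.0893). Leaving out male WT SC-435 replicate 4 added Ugt2b34 (-0.43, adjusted p = 0.0141) and Ugt2b36 (-0.58, adjusted p = 0.00256) and dropped Ugt2b38 (-0.89, adjusted p = 0.0511).

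In KO mice on SC-435 all 6 Ugt2b genes were lower in females and Ugt1a1 (0.57 ± 0.07, edgeR adjusted p = 0.000265) and Ugt1a6a (1.22 ± 0.15, adjusted p = 0.000193) were higher. Ugt2b1 differed most, at 257, 250.6, 265 and 304 CPM in females and 881, 996, 851 and 843 CPM in males (-1.73 ± 0.09, adjusted p = 2.18e-07). For Ugt2b34 the difference was -0.26 ± 0.08 (adjusted p = 0.0376) and was lost without male replicate 2 or 4 or female replicate 2, 3 or 4 (adjusted p 0.0578 to 0.102). Of 15804 genes, 13.5% were called higher and 12.8% lower. Cholangiocyte markers summed to 123 to 170 CPM in these females and 68.2 to 78.4 in the males, and stellate cell and fibroblast markers to 343 to 431 and 179 to 270.2 CPM, both without overlap, and their part was not tested. Ugt1a9 and Ugt1a10 were not called in any of the 4 comparisons of the sexes with all mice in the fit.

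**Figure D5:**
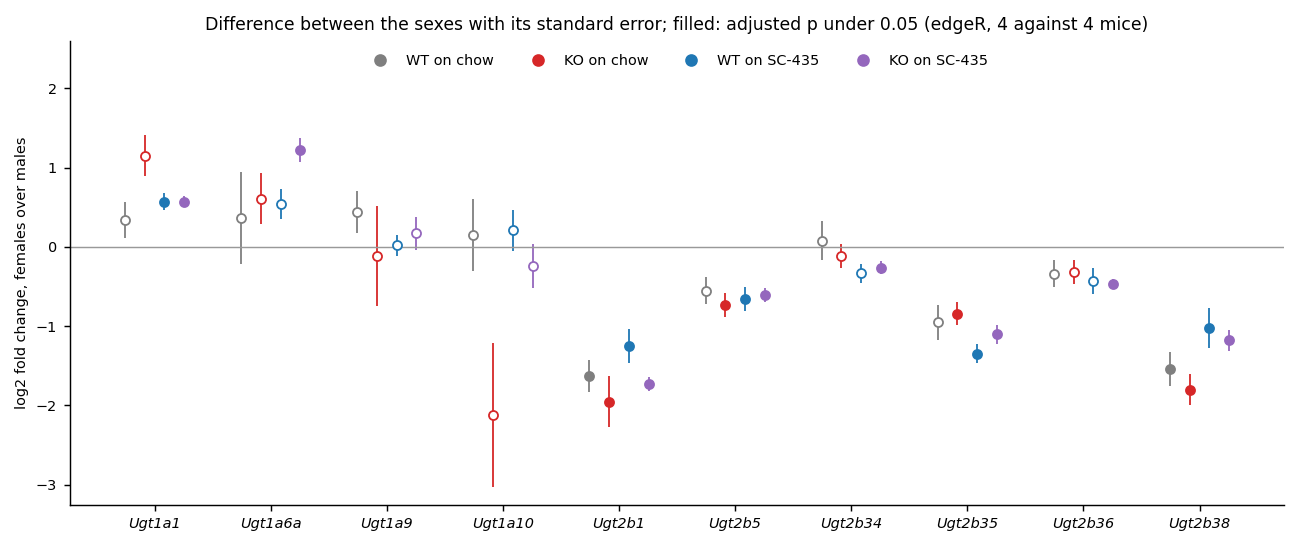
Log2 difference between females and males (points, SE as bars) of the 10 UGT genes in the 4 conditions. Filled points passed an adjusted p under 0.05, and Ugt2b1 lay at -1.63, -1.95, -1.25 and -1.73 in WT chow, KO chow, WT SC-435 and KO SC-435.

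The other 12 UGT genes were read the same way, 9 of them tested in most comparisons. In female KO mice on chow, Ugt3a1 (-1.38 ± 0.33, edgeR adjusted p = 0.0222) and Ugt3a2 (-0.95 ± 0.17, adjusted p = 0.00622), enzymes that use sugars other than glucuronic acid, were lower than in WT. Ugt1a7c (1.53 ± 0.41, adjusted p = 0.0324) and Ugt8a (1.58 ± 0.41, adjusted p = 0.0285), which makes galactosylceramide, were higher, both at low levels. Per kb of exonic length, Ugt1a7c averaged 0.0837 CPM in WT and 0.244 in KO females on chow, and Ugt8a 0.0562 and 0.171. Of all genes, 9.83% were called higher and 5.05% lower. On SC-435, Ugt3a1 (1.34 and 1.24), Ugt3a2 (0.96 and 0.72) and Ugt1a5 (1.89 and 2.10) were higher in female and male KO mice, with edgeR adjusted p of 0.0223 and 0.0102, 0.00575 and 0.0266, and 0.0229 and 0.00101. In male KO mice on SC-435 Ugt2a3 was also higher (0.55, adjusted p = 0.0171), and Ugt2b37 (-1, adjusted p = 0.0185) and Ugt8a (-1.29, adjusted p = 0.0248) were lower. Ugt8a was low here too, at 0.150 CPM per kb on chow and 0.0611 on SC-435. In WT females Ugt3a1 alone of this list was called on SC-435 (0.35, adjusted p = 0.0394). On SC-435, 8.56% of all genes were called higher and 9.23% lower in female KO mice, and 8.8% and 8.36% in male KO mice. In female WT mice these shares were 2.4% and 1.88%.

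Genes that supply or remove UDP-glucuronate were covered by a list of 13, of which 11 were tested. Ugdh, which makes UDP-glucuronate from UDP-glucose, was higher on SC-435 in female KO (1.13 ± 0.09, edgeR adjusted p = 0.000578), male KO (0.62 ± 0.16, adjusted p = 0.0299) and female WT mice (1.2 ± 0.16, adjusted p = 0.00599). In female KO mice 5 of the 11 were higher and none lower, against 8.56% and 9.23% of all genes, including Slc35d1 (0.60, adjusted p = 0.00165), which carries UDP-glucuronate into the endoplasmic reticulum, and Entpd5 (0.91, adjusted p = 0.00306), a nucleotide phosphatase of that compartment. In male KO mice 4 were higher and 2 lower, against 8.8% and 8.36% of all genes. In female WT mice Entpd5 was also higher (0.70, adjusted p = 0.00416), and Slc35b1, a transporter of the same compartment, was lower (-0.86, adjusted p = 0.0161).

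Of 8 transporters of glucuronides and other organic anions, Abcc4, a basolateral export pump, was higher in female KO than WT mice on chow (0.80 ± 0.14, edgeR adjusted p = 0.00513) and higher on SC-435 in female KO (1.07, adjusted p = 0.00258), male KO (1.5, adjusted p = 0.00588) and female WT mice (1.2, adjusted p = 0.00599). Of the 4 uptake carriers in the list, Slco1a1 (-2.55 ± 0.54, adjusted p = 0.0129) and Slco1b2 (-0.43 ± 0.12, adjusted p = 0.0336) were lower in female KO mice on chow, while Slco1a4 (-0.77, adjusted p = 0.0541) and Slco2b1 (-0.30, adjusted p = 0.336) were not called. On SC-435 Slco1b2 was higher in female KO mice (0.35, adjusted p = 0.0256), and the uptake carriers Slco1a4 (1.21, adjusted p = 0.0175) and Slco2b1 (0.46, adjusted p = 0.0247) and the export pump Abcc3 (0.71, adjusted p = 0.0125) were higher in male KO mice. Abcg2 was lower in females than males in WT mice on chow (-1.07, adjusted p = 0.00718).

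Among 7 genes of bilirubin formation and handling, 4 were higher and 1 lower in female KO mice on chow, against 9.83% and 5.05% of all genes. Those higher were Hmox1 (0.49 ± 0.11, edgeR adjusted p = 0.0173), which opens the heme ring, and the glutathione transferases Gsta1 (1.57, adjusted p = 0.0341), Gsta2 (1.06, adjusted p = 0.0037) and Gsta4 (0.52, adjusted p = 0.0357), a family that binds bilirubin. Blvrb, a biliverdin reductase, was lower (-0.62 ± 0.12, adjusted p = 0.00836). On SC-435, Hmox1 was lower (-0.43, adjusted p = 0.0252) and Blvrb (0.47, adjusted p = 0.0173), Gsta1 (2.27, adjusted p = 0.00396) and Gsta3 (0.63, adjusted p = 0.0313) were higher in KO females, against 8.56% of all genes higher and 9.23% lower. Ugt1a1, the bilirubin enzyme itself, was not called in either comparison (-0.12 and -0.06 on the log2 scale).

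Of 22 receptors and factors known to act on UGT genes, 21 were tested. In female KO mice on chow 4 were lower and none higher, against 5.05% and 9.83% of all genes. They were Nr1i3 (CAR, -1.24 ± 0.21, edgeR adjusted p = 0.00509), Nr1h4 (FXR, -0.48, adjusted p = 0.0243), Nr0b2 (SHP, -0.82, adjusted p = 0.0448) and Hnf4a (-0.42, adjusted p = 0.0295). On SC-435 in female KO mice 4 were higher and 1 lower, against 8.56% and 9.23% of all genes, among them Nr1i3 (0.84, adjusted p = 0.0146) and Ahr (0.75, adjusted p = 0.0150), the dioxin receptor, and Foxa2 was lower (-0.77, adjusted p = 0.0138). Cux2, a repressor known to be specific to female liver, was higher in female than in male WT mice on chow (5.56 ± 0.61, adjusted p = 0.00218). Of 20 tested index targets of these receptors, Cyp1a2, a target of the dioxin receptor, was higher on SC-435 in female KO mice (1.05 ± 0.16, adjusted p = 0.00433), and so was Nqo1, a target of Nrf2 (0.67, adjusted p = 0.0158). In male KO mice on SC-435 7 of the 20 were higher and 1 lower, against 8.8% and 8.36% of all genes. The largest were Cyp4a14, a target of PPARα (4.72 ± 0.36, adjusted p = 0.000191), and the CAR targets Cyp2b10 (2.46 ± 0.30, adjusted p = 0.00185) and Cyp2b9 (2.44 ± 0.48, adjusted p = 0.0121). Whether these genes moved with the UGT genes for a common reason was not tested.

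The genes most alike in pattern were sought among protein-coding genes with at least 10 CPM, by the Pearson correlation of log2 levels over the 32 mice, which share the 8 groups. Ugt2b1 was most like Elovl3 (r = 0.95), a fatty acid elongase, then Ugt2b5 (0.94) and Susd4 (0.94), and within groups these were 0.47, 0.75 and 0.68. Ugt2b5 was most like Ugt2b1 (0.94), Ugt2b36 (0.92) and Sdr9c7 (0.90), a retinol dehydrogenase-like enzyme, with 0.75, 0.86 and 0.62 within groups. Ugt2b36 was most like Ugt2b5 (0.92) and the aldo-keto reductases Akr1c12 (0.90) and Akr1c13 (0.86). The values for Ugt2b36 stayed at 0.86, 0.81 and 0.79 within groups. Ugt2b38 was most like Mup14, Mup7 and Cyp7b1 (each 0.93), and within groups these were 0.45, 0.37 and 0.41. Ugt2b35 was most like the Y-linked genes Ddx3y (0.93), Kdm5d (0.93) and Eif2s3y (0.92), with 0.71, 0.73 and 0.70 within groups. Females carry no Y chromosome, so over the 32 mice these values follow sex, and within groups they rest on the males.

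Ugt1a1 was most like Ces1c (r = 0.90), a carboxylesterase, Serpina6 (0.87), the corticosteroid-binding globulin, and Dpys (0.86), and within groups these were 0.82, 0.57 and 0.86. Ugt1a9 was most like 4931406C07Rik (0.84), Slc31a1 (0.81), a copper carrier, and Acacb (0.79), with 0.70, 0.70 and 0.72 within groups. Ugt1a6a was most like Mrs2 (0.89), Prkd3 (0.88) and Sepsecs (0.88), and without male WT chow replicate 1, where Ugt1a6a was at 1.05 CPM, these were 0.79, 0.77 and 0.75. Within groups, with all 32 mice, the values for Ugt1a6a were 0.93, 0.93 and 0.89. Ugt2b34 was most like Armc1, Dhx15 and Mmgt1 (each 0.85), with 0.84, 0.86 and 0.85 within groups. Without male WT chow replicate 1 the values for Ugt2b34, not split by group, were 0.79, 0.81 and 0.82. Ugt1a10 was too low, at a mean of 0.856 CPM, for this measure. Correlations within and between groups are descriptions, and no p is given for them.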

How the data were processed

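RNA-seq of liver was analysed for 32 mice. The authors deposited a table of raw read counts per gene, without normalization, and FPKM values, which were not used here. Per the labels, the submitters' processing notes name HISAT2 2.0.5, featureCounts 1.5.0-p3, DESeq2 1.20.0, GATK 4.1.1.0 and mm10. The strand setting and the handling of reads on shared exons were not given in the sources used here. The authors' columns of fold changes and p-values for their own comparisons were not used.

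Mice were grouped by the sex, genotype and diet of their labels. The 10 genes, the gene lists and the tests were chosen with earlier results of these data known. Comparisons of 2 groups were fitted on their 8 libraries with edgeR 4.0.16 in R 4.3.3 (filterByExpr, TMM, glmQLFit and glmQLFTest), and interactions on 16 libraries, with Benjamini-Hochberg adjustment over all genes tested. Calls were made at adjusted p values under 0.05, whatever the fold. The SE is the log2 fold change divided by the square root of F. DESeq2 1.42.0, other scalings, filters and fits, a replicate block and leaving out each mouse were alternatives. The scripts were tested on simulated counts with known changes, drawn from the means, dispersions and library sizes of these data. DESeq2 was tested in this way only for KO against WT females on chow. All 10 genes passed the filter on low counts in every comparison. Library pairs within groups differed by far more than counting noise (lowest chi-square per gene 18.5 over 48 pairs). All 10 genes are named. Genes of the other lists could be named where they passed, or, above 6 passing, the 3 largest per direction, and not every passing gene is named. Coordinates and exons are those of the file and its matching reference annotation, and motifs and identities were computed from RefSeq and reference sequences. Some genes of the list on UDP-glucuronate are not reported here.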

Additional observations from a re-analysis of the deposited data

Results flagged for a closer look

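In each group of 4 mice the gap between the highest or lowest mouse and its neighbour was divided by the range of the group, and compared with Dixon's 95% critical value for 4 samples. Of 80 sets of 1 gene in 1 group, 5 passed, and chance passes about 1 in 20. Female KO chow replicate 4 was high for Ugt1a10 (ratio 0.998), with 20 reads against 1 in each of the others. Male KO SC-435 replicate 2 was high for Ugt1a1 (0.911), at 109 CPM beside 100.1 to 101 CPM. Male WT chow replicate 1 was low for Ugt2b35 (0.907), at 183 CPM, in the library with the lowest TMM factor. Female KO SC-435 replicate 4 was high for Ugt1a6a (0.84), at 20.9 CPM, and female WT chow replicate 2 was high for Ugt2b38 (0.836), at 26.4 CPM.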

How the results depend on the processing

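For calls made with all mice, all 446 values under the alternatives kept their sign. Counts of the 10 genes called that changed by over 1.5 times, or from 0, were as follows, and the cause was not tested. Smaller changes also occurred. In KO males on SC-435, library size only lost Ugt1a9 (edgeR adjusted p = 0.0563) and called Ugt2b38 lower (-0.5, adjusted p = 0.0223). For KO against WT females, Ugt1a10 was called with the 4 female groups in 1 fit (adjusted p = 0.0158) and without the count filter (0.0449). Median-of-ratios scaling lost Ugt2b35 in KO females on SC-435 (0.0528). With library size only, KO against WT on chow in females gave 1. With the replicate number as a block, it gave 1 (Ugt2b5), SC-435 against chow gave 2 in KO females (Ugt1a6a and Ugt2b1) and 0 in WT females, and females against males gave 1 in WT mice on chow (Ugt2b1) and 1 in KO mice on chow (Ugt2b38). The numbers do not pair the mice: correlations of deviations between same-numbered mice ran from -0.26 to 0.33 and no comparison had all pairs over 0.1. The block moved no other count by over 1.5 times. It also lowered the shares of all genes called, for KO against WT females from 9.83% to 7.6% higher and from 5.05% to 3.25% lower. Asking also for a fold over 2 left 0 in KO against WT females, 1 in SC-435 against chow in KO females (Ugt1a10), 0 in KO males and 0 in WT females, 0 in treated KO against WT females, and 2, 3 and 4 for the sexes in KO chow, WT SC-435 and KO SC-435. DESeq2 called 2 in SC-435 against chow in KO males (Ugt1a9 and Ugt1a10) and 4 for the sexes in WT mice on chow. Fitting the 4 groups of a sex together gave 1 in KO against WT males (Ugt1a1) and 0 in SC-435 against chow in KO males.

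Leaving out each mouse in turn gave 1 to 4 calls for KO against WT females and 0 for males, 1 to 6 and 0 to 3 for SC-435 in KO females and males, 0 to 2 and 0 in WT, 1 to 2 and 0 for treated KO against WT, 2 to 6, 2 to 6, 3 to 6 and 7 to 8 for the sexes in WT chow, KO chow, WT SC-435 and KO SC-435, and, for the interactions, 0 to 2 and 0 for genotype by SC-435 in females and males and 0 to 1 for each difference between the sexes. The shares of all genes called moved with the mouse left out too, so these ranges are not particular to the UGT genes. For the sexes in WT chow they went from 0.747% in each direction to 4.78% higher and 4.75% lower without male WT chow replicate 1. For KO against WT females they were 12.6% and 6.74% without KO chow replicate 4. The 3 comparisons of the sexes outside WT mice on chow, and the likeness without male WT chow replicate 1, were chosen after seeing the data. Which fits without a single mouse are given in detail, such as those without female KO chow replicate 4, was also decided with their values known. With 1 read in a library, the level of Ugt1a10 in KO females on chow is limited by depth.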
